A study of Homo sapiens with 6 samples.

Results

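The genes described here encode the plasma membrane and lysosomal carriers that move amino acids, drawn from the solute carrier (SLC) families SLC1, SLC3, SLC6, SLC7, SLC16, SLC36, SLC38 and SLC43. They were picked out by a list of gene symbols, drawn up with earlier results of these data known, and 37 of the 29176 rows of the deposited expression table carry one of the symbols. RNA was sequenced from HaCaT cells, an established line of spontaneously immortalised human keratinocytes, with total RNA taken after 48 hours. The knockdown samples (si-eIF4E+M5, n = 3) had received a small interfering RNA against eIF4E together with M5, and the control samples (si-NC+M5, n = 3) a control small interfering RNA together with M5. M5 is the stimulus that the series title describes as turning the cells into a culture model of psoriasis, and the labels do not list its components. Both groups were stimulated, so no value below compares stimulated with resting cells. The labels do not say whether the replicates came from separate cultures. The p-values therefore set a group difference only against the spread among these samples, and that spread may be technical.

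Amino acids cross membranes mainly through carriers, which fall into families with overlapping substrates. The SLC7 light chains LAT1, LAT2, y+LAT1, y+LAT2 and xCT reach the cell surface only when paired with the heavy chain 4F2hc, which SLC3A2 encodes. They work as exchangers: glutamine brought in by sodium-dependent carriers such as ASCT2 and the SNATs can be traded for leucine and other essential amino acids. Leucine and arginine in turn are sensed at the lysosome upstream of the growth kinase mTORC1. Many of these carrier genes are known targets of the stress factor ATF4, which is induced when amino acids run short, and some are targets of MYC. eIF4E binds the cap of messenger RNAs and starts their translation. The measurements here are of RNA amounts and say nothing of protein or of transport.

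The libraries held between 71044961 and 74246501 counts. EIF4E itself was lower in all 3 knockdown libraries, at 1.47, 1.24 and 1.59 FPKM (fragments per kilobase and library size, the authors' level per gene length) in si-eIF4E+M5, against 3.46, 3.21 and 3.43 FPKM in si-NC+M5. The log2 fold change of EIF4E was -1.25 ± 0.09 (SE; adjusted p = 7.23e-05, from the quasi-likelihood test of edgeR, adjusted by Benjamini-Hochberg over all tested genes, as are all adjusted p-values below; a gene was called under 0.05). All 8 keratinocyte markers were expressed, with a summed level of 3167 to 3378 FPKM in si-eIF4E+M5 and 3077 to 3083 FPKM in si-NC+M5. Markers of other skin cells were near 0. The 4 fibroblast markers summed to 0.531 to 0.855 FPKM in si-eIF4E+M5 and 0.288 to 0.372 FPKM in si-NC+M5, the 3 melanocyte markers to 0.450 to 0.525 and 0.288 to 0.542 FPKM, and the 3 leukocyte markers to 0.509 to 1.13 and 0.396 to 0.552 FPKM. The fibroblast sums were higher in every knockdown library, and their part in the results below was not tested.

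In the knockdown cells most of the abundant carrier genes were lower. SLC7A5 and SLC3A2, the light and heavy chain of the leucine exchanger LAT1, fell to 66.0% and 64.8% of the control level. The cystine exchanger gene SLC7A11 fell to 53.6%, and the genes for the glutamine carriers ASCT2 and SNAT1 (SLC1A5, SLC38A1) fell to 74.8% and 67.3%. The low-expressed LAT2 gene SLC7A8 rose to 170.7%, and the SNAT2 gene SLC38A2 did not pass the test.

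Of the 37 genes, 25 passed the filter on low counts and were tested, and 10 of these fell, 3 rose and 12 did not pass. Among all 18022 tested genes 8.4% were called lower and 7.44% higher. The median log2 fold change of the 25 was -0.19, and that of all tested genes -0.01. The FPKM values of the 2 groups did not overlap in 16 of the 25, and in 34.4% of all tested genes. By family, SLC7 had 4 of 6 tested genes lower and 1 higher, and SLC1 and SLC43 each had 1 of 3 lower and 1 higher. SLC38 had 1 of 7 lower, SLC6 1 of 3, SLC36 1 of 2 and SLC3 its 1 tested gene. The 13 calls were made again in 13 other settings at the same threshold, which include each library left out in turn, and 11 of them held in every one. The exceptions, SLC1A3 and SLC36A1, are described below. In bulk RNA a smaller number of cells that express a gene and less of its RNA in each cell cannot be told apart.

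**Figure D1:**
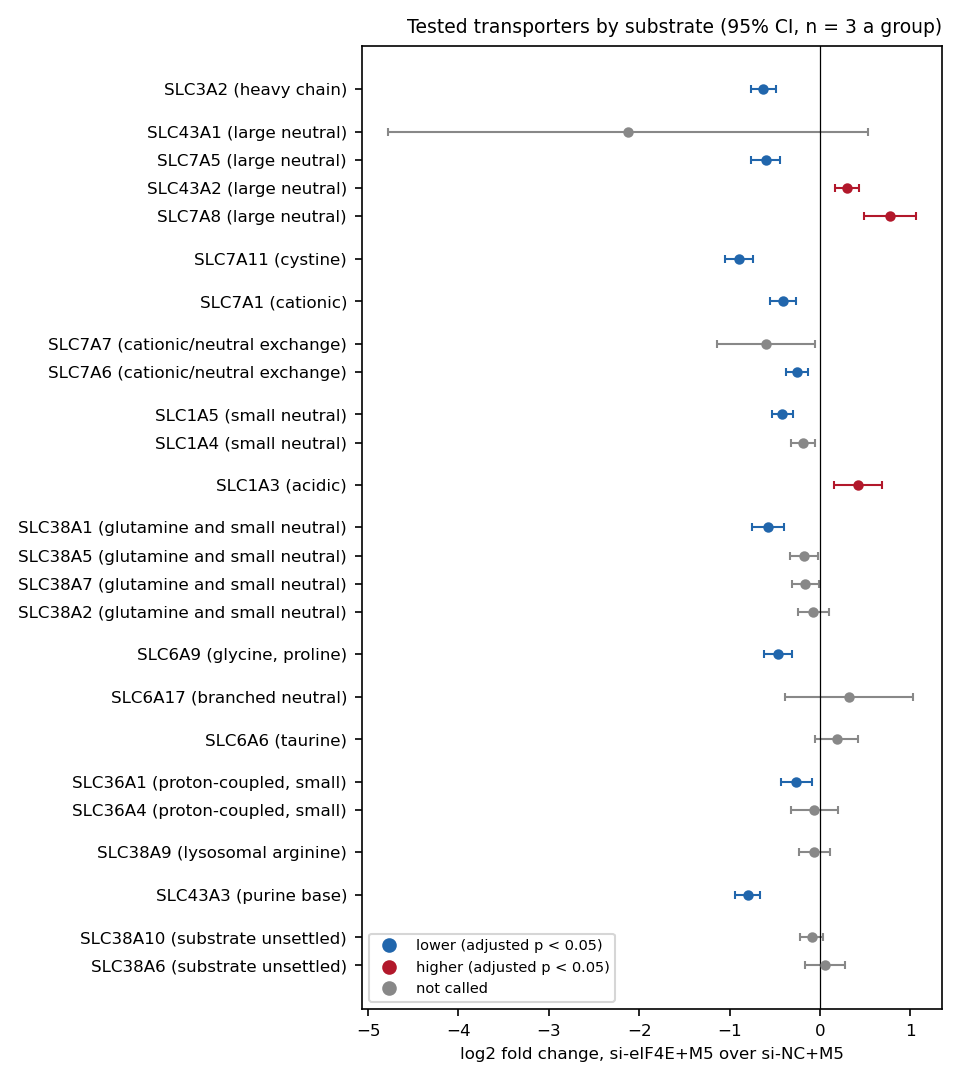
Log2 fold change in si-eIF4E+M5 relative to si-NC+M5 (horizontal axis) for the 25 tested transporter genes, grouped by main substrate; points are edgeR estimates, bars are 95% confidence intervals and colour gives the call at adjusted p under 0.05. The 10 genes called lower lie between -0.90 (SLC7A11) and -0.25 (SLC7A6), and the 3 called higher between 0.30 (SLC43A2) and 0.77 (SLC7A8).

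SLC7A5 (ENSG00000103257, minus strand of chromosome 16, 87830023 to 87869507 in GRCh38) encodes LAT1, the main importer of leucine, other branched-chain and aromatic amino acids in growing cells. It was measured at 563, 596 and 605 FPKM in si-eIF4E+M5, against 817, 948 and 853 FPKM in si-NC+M5. Every knockdown library lay below every control library. The log2 fold change of SLC7A5 was -0.60 ± 0.07 (adjusted p = 7e-04). By mean FPKM it was the 44th most abundant gene of the table in si-eIF4E+M5 and the 28th in si-NC+M5, and it took 0.293% of all counts in si-eIF4E+M5 and 0.435% in si-NC+M5. Its pseudogenes SLC7A5P1 and SLC7A5P2, which share sequence with it, had at most 28 counts in any library, against at least 202925 for SLC7A5.

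SLC3A2 (plus strand of chromosome 11, 62856102 to 62888875) encodes 4F2hc, the heavy chain that carries LAT1 and the related light chains to the surface. It stood at 129, 134 and 133 FPKM in si-eIF4E+M5, against 199, 212 and 188 FPKM in si-NC+M5. The groups did not overlap, and the log2 fold change was -0.63 ± 0.06 (adjusted p = 3.24e-04). The ratio of SLC7A5 to SLC3A2 FPKM was 4.37, 4.44 and 4.55 in si-eIF4E+M5 and 4.10, 4.47 and 4.54 in si-NC+M5. The 2 sets of ratios overlapped (two-sided exact permutation test, p = 0.8), and the log2 ratio differed by 0.03 between the groups. The other heavy chain gene, SLC3A1, whose product rBAT serves the cystine and dibasic carrier of kidney and gut, had at most 3 counts in any library and was not tested.

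Among the 5 light chain genes measured that pair with SLC3A2, SLC7A5 made up 96.5% of their summed FPKM in si-eIF4E+M5 and 96.6% in si-NC+M5. That sum was 584, 617 and 626 FPKM in si-eIF4E+M5, against 847, 979 and 884 FPKM in si-NC+M5. The sum over all 37 genes was 1117, 1136 and 1178 FPKM in si-eIF4E+M5, against 1524, 1676 and 1565 FPKM in si-NC+M5, and SLC7A5 alone gave 51.4% and 54.9% of it. The summed level is thus mostly that of SLC7A5.

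RefSeq promoter windows on GRCh38.p14 matched 30 of the 37 genes, with 51 windows in all since a gene can have several starts. SLC7A11, described below, had no window, so its promoter was not searched for any motif. The 250 bases before each start were searched on both strands for 3 motifs. TGATGNAA is the core of the element bound by C/EBP and ATF4 dimers, CACGTG the E-box bound by MYC with MAX and by the TFEB family, and TGACNNNGC the core of the antioxidant response element bound by NRF2. TGATGNAA was present in 3.92% of the windows of these genes and in 3.14% of all 35116 windows, CACGTG in 13.7% and 6.34%, and TGACNNNGC in 11.8% and 10.9%. Windows of 1 gene can share bases, and a match is a description and not a binding site. The windows of SLC7A5 and SLC7A1 and a short stretch of SLC3A2 are given as examples of genes that fell. Each holds 1 of the motifs, which is in capitals. SLC1A5, SLC36A1 and SLC7A6 also fell and hold motifs, and their windows are not printed.
SLC7A5, chr16:87869508-87869757, minus strand: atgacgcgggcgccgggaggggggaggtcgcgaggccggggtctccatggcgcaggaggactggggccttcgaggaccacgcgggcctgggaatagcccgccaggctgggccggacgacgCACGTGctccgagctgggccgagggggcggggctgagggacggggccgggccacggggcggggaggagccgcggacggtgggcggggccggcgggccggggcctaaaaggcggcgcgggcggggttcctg
SLC7A1, chr13:29595689-29595938, minus strand: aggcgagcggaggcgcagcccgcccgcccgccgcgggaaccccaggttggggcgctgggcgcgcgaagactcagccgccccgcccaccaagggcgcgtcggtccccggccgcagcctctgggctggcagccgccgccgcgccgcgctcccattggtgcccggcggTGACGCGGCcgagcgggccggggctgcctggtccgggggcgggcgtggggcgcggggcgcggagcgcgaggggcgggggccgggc
SLC3A2, chr11:62881652-62881680, plus strand: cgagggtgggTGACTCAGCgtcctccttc
The E-box of SLC7A5 begins 130 bases before its start, and the TGACNNNGC match of SLC7A1 85 bases before its own. That of SLC3A2 begins 37 bases before 1 of its starts, which lies inside the span of the gene given above. The SLC3A2 windows at 62855859 to 62856108 and at 62880646 to 62880895 hold none of the motifs. Genes that rose hold the motifs too. SLC7A8 has a CACGTG 129 bases before one of its starts, and SLC1A3 has a TGACNNNGC 196 bases and a TGATGNAA 220 bases before different starts. The other gene with a TGATGNAA is SLC1A5, which fell and has it 97 bases before a start. SLC1A5 also has a CACGTG 50 bases and a TGACNNNGC 111 bases before another start. Of the 250 bases before that start, 193 lie in exons of SLC1A5 itself. Of the 30 genes with windows, 8 fell. CACGTG was in 7 of the 30, of which 3 fell, and TGACNNNGC in 6, of which 4 fell. SLC38A5, SLC43A1 and SLC7A7, which were not called, hold CACGTG, and SLC38A1, which fell, holds none of the motifs. Whether the motifs bear on the changes was not tested.

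Of the other carriers of large neutral amino acids, SLC7A8 and SLC43A2 rose and SLC43A1 did not pass the test. SLC7A8 encodes LAT2, a second light chain of SLC3A2 with a wider choice of neutral substrates. It was measured at 1.52, 1.42 and 1.57 FPKM in si-eIF4E+M5, against 0.830, 0.797 and 0.956 FPKM in si-NC+M5, without overlap, from 662 to 725 counts against 360 to 447. It rose 1.71-fold (log2 fold change 0.77 ± 0.13, adjusted p = 0.00347). SLC43A2 encodes LAT4, a facilitator that lets large neutral amino acids through without exchange. It stood at 4.35, 4.39 and 4.39 FPKM in si-eIF4E+M5, against 3.41, 3.48 and 3.58 FPKM in si-NC+M5, again without overlap. It rose 1.23-fold (0.30 ± 0.06, adjusted p = 0.00941). The sister gene SLC43A1 (LAT3) was near the limit of detection, with 0, 0 and 23 counts in si-eIF4E+M5 against 33, 51 and 14 in si-NC+M5, and did not pass (adjusted p = 0.281). Without si-eIF4E+M5 replicate 3 both remaining knockdown libraries are at 0 and the adjusted p of SLC43A1 was 0.0126, where it ranged from 0.0126 to 0.594 over the settings.

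The ratio of SLC7A8 to SLC7A5 FPKM was 0.00269, 0.00239 and 0.00260 in si-eIF4E+M5, against 0.00102, 0.000840 and 0.00112 in si-NC+M5. The ratio of SLC43A2 to SLC7A5 was 0.00772, 0.00736 and 0.00726 in si-eIF4E+M5, against 0.00418, 0.00367 and 0.00419 in si-NC+M5. Both ratios were higher in every knockdown library, by 1.38 and 0.89 on the log2 scale. In all 7 pairs of genes were compared in this way, chosen after the values were seen. Each pair other than SLC7A5 to SLC3A2 separated the groups with a two-sided exact permutation p of 0.1, the smallest that 3 against 3 samples allow. After Benjamini-Hochberg adjustment over the 7 it was 0.117. For the ratios of SLC7A8 and SLC43A2 to SLC7A5 this outcome was fixed, since numerator and denominator each separated the groups in opposite directions. Those p-values add nothing to the results of the single genes. Even in si-eIF4E+M5, SLC7A5 was present at 588 ± 22.1 FPKM and SLC7A8 at 1.504 ± 0.0752 FPKM (SD, n = 3), so the rise of SLC7A8 is small beside the fall of SLC7A5 in absolute level.

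**Figure D2:**
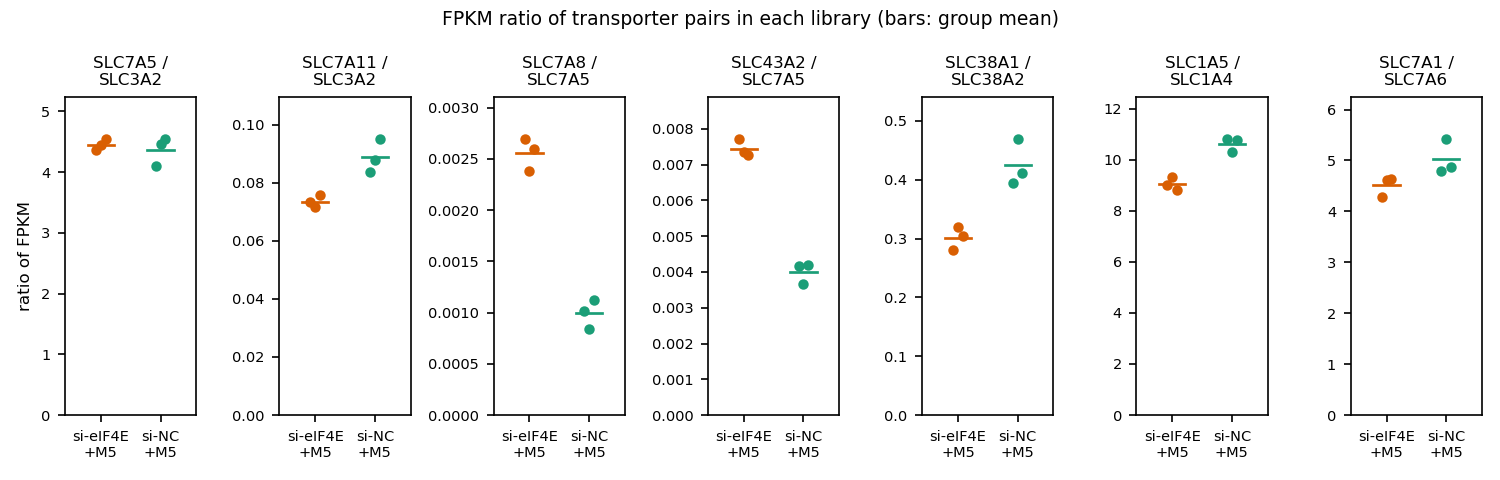
Ratio of the FPKM values of 7 pairs of transporter genes (vertical axes, each starting at 0) in each library, si-eIF4E+M5 on the left and si-NC+M5 on the right of each panel; bars are group means. Only the SLC7A5 to SLC3A2 ratio overlaps between the groups.

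SLC7A11 (minus strand of chromosome 4, 138164097 to 138242349) encodes xCT, which imports cystine for glutathione synthesis in exchange for glutamate. It had the largest fall among the genes called here. It was measured at 9.44, 9.60 and 10.1 FPKM in si-eIF4E+M5, against 16.6, 18.7 and 17.9 FPKM in si-NC+M5, without overlap. The log2 fold change was -0.90 ± 0.07 (adjusted p = 9.2e-05), and the 95% confidence interval of its remaining level ran from 48.3% to 59.6%. Its ratio to SLC3A2 was 0.0732, 0.0715 and 0.0757 in si-eIF4E+M5, against 0.0835, 0.0880 and 0.0951 in si-NC+M5, so it was lower relative to its heavy chain too. The antisense gene SLC7A11-AS1, whose reads cannot be told from those of SLC7A11 without strand, held 19 to 37 counts in si-eIF4E+M5 and 31 to 78 in si-NC+M5, on average 0.407% of the counts of SLC7A11. The kidney cystine carrier gene SLC7A9 had at most 23 counts in a library and was not tested.

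Cationic amino acids are carried by a separate branch of SLC7. SLC7A1 encodes CAT1, the widely expressed arginine, lysine and ornithine importer, which needs no heavy chain. It stood at 44.0, 44.3 and 46.1 FPKM in si-eIF4E+M5, against 55.5, 62.2 and 57.5 FPKM in si-NC+M5. The groups did not overlap and the log2 fold change was -0.41 ± 0.06 (adjusted p = 0.00254). SLC7A6 encodes y+LAT2, which pairs with SLC3A2 and exports arginine against glutamine and sodium. It was at 10.3, 9.59 and 9.95 FPKM in si-eIF4E+M5, against 11.6, 11.5 and 11.8 FPKM in si-NC+M5, a smaller fall without overlap (-0.25 ± 0.05, adjusted p = 0.00984). The gene SLC7A6OS on the opposite strand overlaps SLC7A6 and has 40.2% as many counts; it did not pass itself (-0.15 ± 0.09, adjusted p = 0.334). SLC7A7, the y+LAT1 gene, had 80 to 94 counts in si-eIF4E+M5 and 108 to 158 in si-NC+M5 and did not pass (-0.60 ± 0.24, adjusted p = 0.135). SLC7A2 had at most 4 counts in a library.

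Of the neutral amino acid carriers of SLC1, SLC1A5 (minus strand of chromosome 19, 46774883 to 46788594) encodes ASCT2, the glutamine, serine and alanine exchanger. It was measured at 79.1, 78.9 and 76.8 FPKM in si-eIF4E+M5, against 101, 104 and 102 FPKM in si-NC+M5. The groups were far apart for the spread within them, and the log2 fold change was -0.42 ± 0.05 (adjusted p = 8.1e-04). SLC1A4 encodes ASCT1, which takes serine, alanine and cysteine. It was at 8.76, 8.44 and 8.72 FPKM in si-eIF4E+M5, against 9.35, 10.1 and 9.51 FPKM in si-NC+M5, and did not pass although the groups did not overlap (-0.19 ± 0.06, adjusted p = 0.0568). The SLC1A4 call was made in 3 of the other settings, and its adjusted p ranged from 0.0482 to 0.207. The ratio of SLC1A5 to SLC1A4 was 9.06 ± 0.268 in si-eIF4E+M5 and 10.6 ± 0.289 in si-NC+M5 (SD, n = 3).

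SLC1A3, encoding the glutamate and aspartate transporter EAAT1, was the only acidic amino acid carrier gene tested. It was at 13.9, 13.2 and 16.2 FPKM in si-eIF4E+M5, against 10.2, 8.98 and 12.5 FPKM in si-NC+M5. The groups were adjacent but did not overlap, and the gene rose 1.34-fold (0.42 ± 0.12, adjusted p = 0.0374). This call was lost in 9 of 13 other settings, among them without any of the 3 knockdown libraries and without si-NC+M5 replicate 1 or 2, and its adjusted p ranged from 0.00131 to 0.146. SLC1A1, the EAAT3 gene, had 6 counts in 1 library and 0 in the other 5.

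The SLC38 family holds the sodium-coupled neutral carriers known as SNATs, several of which bring in glutamine. SLC38A1 (SNAT1) was at 29.4, 28.9 and 33.2 FPKM in si-eIF4E+M5, against 40.9, 46.1 and 46.2 FPKM in si-NC+M5. It fell without overlap (-0.57 ± 0.08, adjusted p = 0.00141). SLC38A2 (SNAT2), the amino-acid-regulated member of the same transport system and a known ATF4 target, was at 104, 90.5 and 109 FPKM in si-eIF4E+M5, against 104, 98.2 and 112 FPKM in si-NC+M5. Its groups overlapped (-0.08 ± 0.08, adjusted p = 0.583), and the 95% confidence interval of its level, 84.3% to 106.8% of the control, does not reach the 67.3% of SLC38A1. The ratio of SLC38A1 to SLC38A2 was 0.281, 0.320 and 0.304 in si-eIF4E+M5, against 0.395, 0.470 and 0.412 in si-NC+M5. SLC38A2 was the third most abundant of the 37 genes in both groups, and of those with a mean of at least 20 FPKM it moved least.

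SLC38A5 (SNAT5), a glutamine, histidine and glycine carrier, was at 26.3, 28.6 and 27.3 FPKM in si-eIF4E+M5, against 32.1, 31.0 and 28.2 FPKM in si-NC+M5, and did not pass (-0.18 ± 0.07, adjusted p = 0.118). SLC38A7 (SNAT7), which lets glutamine out of lysosomes, was at 8.06, 6.83 and 7.17 FPKM in si-eIF4E+M5, against 8.47, 8.12 and 7.57 FPKM in si-NC+M5 (-0.16 ± 0.07, adjusted p = 0.155). Both pairs of groups overlapped. SLC38A10, whose substrates are less settled, was at 16.7, 16.4 and 17.004 FPKM in si-eIF4E+M5, against 17.2, 17.9 and 17.3 FPKM in si-NC+M5 (-0.09 ± 0.06, adjusted p = 0.312). SLC38A9, the lysosomal arginine sensor that acts on mTORC1, averaged 3.00 ± 0.189 FPKM in si-eIF4E+M5 and 3.07 ± 0.0663 FPKM in si-NC+M5 and did not pass (-0.06 ± 0.08, adjusted p = 0.667). SLC38A6 averaged 3.06 FPKM in si-eIF4E+M5 and 2.87 FPKM in si-NC+M5 and did not pass (adjusted p = 0.764). SLC38A6 overlaps TRMT5 on the opposite strand only at its start: SLC38A6 begins at 60981114 and TRMT5 ends at 60981170. Over its whole length TRMT5 has 183% as many counts as SLC38A6, and it was called lower (-0.34 ± 0.09, adjusted p = 0.022). How many reads fall in the short shared stretch was not measured. SLC38A4 and SLC38A11 had at most 8 and 2 counts in a library.

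**Figure D3:**
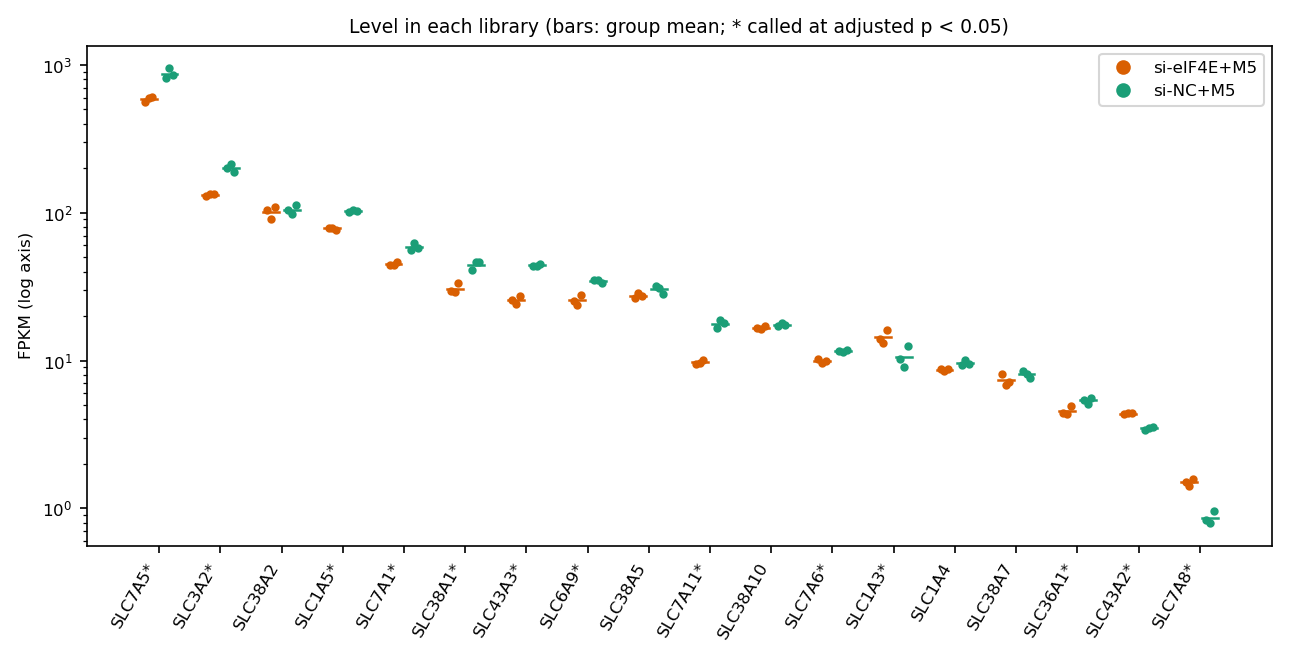
FPKM in each library (vertical log axis) of the transporter genes that were called or had a mean of at least 5 FPKM in a group, ordered by control level, with si-eIF4E+M5 left of si-NC+M5; short bars are group means and an asterisk marks a call. SLC7A5 lies near 588 FPKM in si-eIF4E+M5 and 873 FPKM in si-NC+M5, far above every other gene, and the groups of SLC38A2 lie on one another.

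Of the SLC6 carriers, SLC6A9 encodes GLYT1, the sodium and chloride driven glycine importer. It was measured at 25.2, 23.7 and 27.7 FPKM in si-eIF4E+M5, against 35.2, 35.0 and 33.6 FPKM in si-NC+M5, without overlap. It fell with a log2 fold change of -0.47 ± 0.07 (adjusted p = 0.00184). CCDC24 overlaps SLC6A9 on the opposite strand with 16.2% as many counts and had a log2 fold change of the other sign (0.20 ± 0.09, adjusted p = 0.17). SLC6A6, the taurine transporter, averaged 4.64 ± 0.590 FPKM in si-eIF4E+M5 and 3.99 ± 0.465 FPKM in si-NC+M5, with overlapping groups (adjusted p = 0.289). SLC6A17, a carrier of synaptic vesicles, had 45 to 92 counts over the libraries and did not pass (adjusted p = 0.576). SLC6A14, the broad carrier of neutral and cationic amino acids, had 4 counts in 1 library and 0 in the others, and SLC6A20 at most 4.

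SLC36A1 encodes PAT1, which lets small amino acids such as glycine, alanine and proline out of lysosomes with protons. It stood at 4.401, 4.345 and 4.96 FPKM in si-eIF4E+M5, against 5.45, 5.10 and 5.56 FPKM in si-NC+M5. The groups were close but did not overlap, and the gene fell (-0.26 ± 0.08, adjusted p = 0.0462). The call was lost in 9 of 13 other settings, among them without si-eIF4E+M5 replicate 1 or 2 and without any of the 3 control libraries, and its adjusted p ranged from 0.0221 to 0.172. SLC36A4 (PAT4) averaged 1.62 FPKM in si-eIF4E+M5 and 1.66 FPKM in si-NC+M5 (adjusted p = 0.784).

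SLC43A3 belongs to the LAT3 family by sequence but is known as a carrier of purine bases rather than of amino acids. It was at 25.9, 24.2 and 27.5 FPKM in si-eIF4E+M5, against 43.9, 43.4 and 45.2 FPKM in si-NC+M5. The groups were widely separated, and its log2 fold change of -0.80 ± 0.06 (adjusted p = 1.14e-04) was next after that of SLC7A11. Within the SLC43 family the direction therefore differed between SLC43A3 and SLC43A2.

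In all 12 of the 37 genes did not pass the filter, and 10 of these had at most 10 counts in every library. The highest single values were 27 counts of SLC6A15 in si-eIF4E+M5 replicate 2 and 23 counts of SLC7A9 in the same library. At this depth a count of 0 allows up to 3 counts, or 0.0404 to 0.0422 CPM (counts scaled to library size), counting error only. Expression of the aromatic carrier SLC16A10, of SLC7A4 and of SLC36A3 was likewise not detectable beyond a few counts.

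Of the 13 calls, 7 lay among the more abundant genes and 6 below them. Of the 9 genes with a mean of at least 20 FPKM over the 6 libraries, a level chosen after the values were seen, 7 fell and SLC38A2 and SLC38A5 did not pass. Among all 2213 tested genes at that level, 15.3% were called lower and 11.4% higher. Of the 16 tested genes below it, 3 fell (SLC7A11, SLC7A6 and SLC36A1) and 3 rose (SLC1A3, SLC43A2 and SLC7A8). Deeper coverage also makes a given change easier to call, so the 2 levels are not matched in sensitivity. With no such split, across the 25 tested genes the log2 of the mean FPKM and the log2 fold change had a Pearson r of -0.0057 and a Spearman rho of -0.418. This is a description only, since genes of the same libraries are not independent. The 25 include SLC43A1, near the limit of detection at -2.12 ± 1.19, to which Pearson r is more sensitive than rho. The coefficients without SLC43A1 were not computed.

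**Figure D4:**
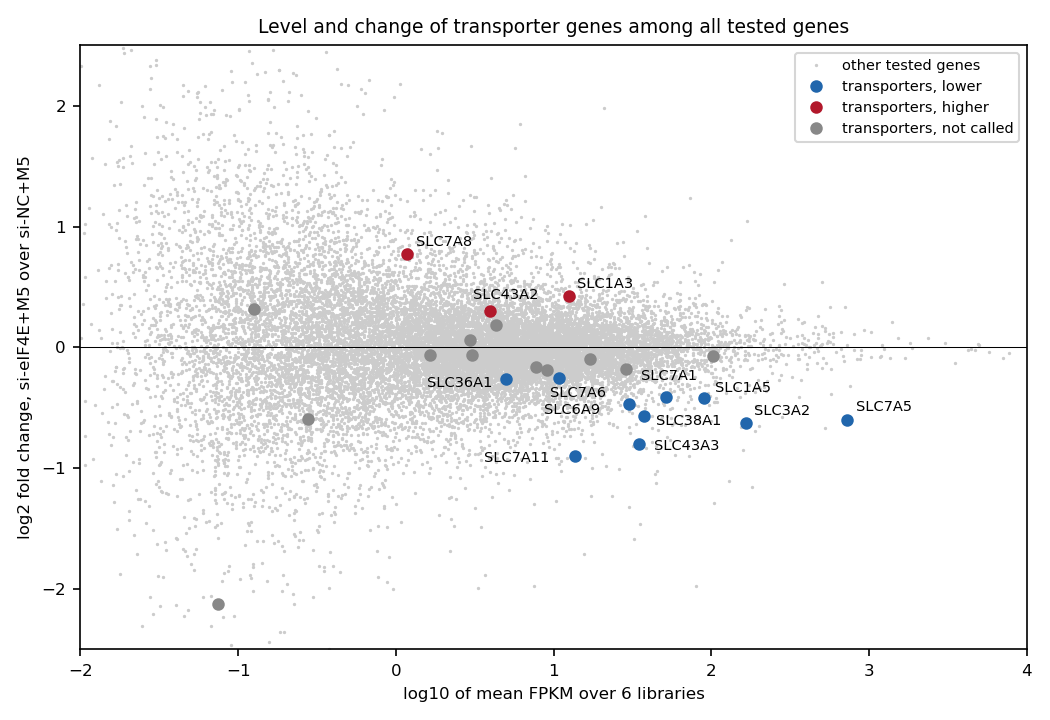
Log2 fold change in si-eIF4E+M5 relative to si-NC+M5 (vertical axis) against log10 of the mean FPKM over 6 libraries (horizontal axis) for all tested genes in grey and for the transporter genes in colour; 78 genes lie outside the axes. Of the 10 transporters called lower, 7 have a mean of at least 20 FPKM, with SLC7A5 farthest right at a log2 fold change of -0.60, and the 3 called higher lie below that level.

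Genes around the carriers were examined in 3 lists. Of 19 regulators of transcription and of the stress response 9 fell and 1 rose, with a median log2 fold change of -0.29. Among all tested genes 8.4% were called lower and 7.44% higher. ATF4, the transcription factor that drives many amino acid carrier genes, was at 144, 151 and 137 FPKM in si-eIF4E+M5, against 189, 183 and 176 FPKM in si-NC+M5 (-0.38 ± 0.06, adjusted p = 0.00245). MYC was at 51.4, 55.0 and 51.2 FPKM in si-eIF4E+M5, against 90.2, 96.3 and 83.7 FPKM in si-NC+M5 (-0.81 ± 0.07, adjusted p = 1.63e-04). Both were lower in every knockdown library. DDIT3, the ATF4 partner CHOP (-0.91 ± 0.15, adjusted p = 0.00326), and PPP1R15A, the phosphatase subunit GADD34 (-0.89 ± 0.13, adjusted p = 0.00223), fell most in this list. TFEB, the lysosomal transcription factor, rose (0.50 ± 0.08, adjusted p = 0.00285). NFE2L2, encoding NRF2, did not pass (-0.20 ± 0.06, adjusted p = 0.0536). Whether the transporter genes follow any of these factors was not tested.

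Of 35 tested genes of amino acid sensing upstream of mTORC1, 3 rose and 2 fell, beside 7.44% and 8.4% of all tested genes. The median of the 35 was -0.01, the same to 2 decimals as that of all tested genes. SESN2, a leucine sensor and ATF4 target, was at 14.5, 15.0 and 13.1 FPKM in si-eIF4E+M5, against 20.8, 25.6 and 18.4 FPKM in si-NC+M5 (-0.64 ± 0.11, adjusted p = 0.00437). SEH1L, a subunit of the GATOR2 complex, fell slightly (-0.24 ± 0.07, adjusted p = 0.0318). The folliculin partner FNIP2 (0.92 ± 0.13, adjusted p = 0.00184) and the S-adenosylmethionine sensor BMT2 (0.59 ± 0.11, adjusted p = 0.00629) rose, as did RRAGA, a Rag GTPase (0.33 ± 0.08, adjusted p = 0.0248). SEH1L was not called without any 1 of the 6 libraries, and its adjusted p ranged from 0.018 to 0.143 over the settings. RRAGA was not called without si-eIF4E+M5 replicate 1 or 2, without si-NC+M5 replicate 1 or 2, or with no filter, and its adjusted p ranged from 0.00229 to 0.11. MTOR, at 0.003 ± 0.10, and RPTOR, at -0.01 ± 0.07, did not pass.

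Of 16 tested genes for other lysosomal, mitochondrial or vesicular amino acid carriers 2 fell and 2 rose, beside 8.4% and 7.44% of all tested genes. The median of the 16 was -0.13. SLC25A15, the mitochondrial ornithine carrier, was at 3.67, 3.88 and 3.84 FPKM in si-eIF4E+M5, against 5.48, 6.19 and 5.97 FPKM in si-NC+M5 (-0.66 ± 0.09, adjusted p = 0.00113). SLC15A4, a lysosomal histidine and peptide carrier, fell by 0.41 on the log2 scale (adjusted p = 0.0167). The mitochondrial carriers SLC25A44, for branched-chain amino acids (0.26 ± 0.07, adjusted p = 0.032), and SFXN3, for serine (0.21 ± 0.06, adjusted p = 0.0427), rose. The calls of SFXN3, SLC25A44 and SLC15A4 were lost without at least 1 library, SFXN3 without any 1 of the 6. The lysosomal cystine exporter CTNS (-0.27 ± 0.10, adjusted p = 0.105) did not pass.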

How the data were processed

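Total RNA of 6 HaCaT samples was sequenced, 3 per group. The authors deposited whole-number counts per gene and FPKM values in 1 table. Per the submitters' processing notes, the tools were cutadapt 1.9 and FastQC and the build GRCh38. The aligner, counting tool, annotation and use of strand were not given in the sources used here. FPKM by definition divides counts by gene length and library size. Once 1 factor per library was divided out, the ratio of count to FPKM was constant between libraries within 1% in 100% of 9940 genes. This check allows any factor per library, so it cannot tell library totals from TMM-scaled totals. It does not test the gene lengths either. TMM factors were 0.9804 to 1.039.

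Counts of all genes were fitted by edgeR 4.0.16 under R 4.3.3 (filterByExpr, a minimum of 10 counts, 18022 genes kept, TMM, quasi-likelihood, two-sided, Benjamini-Hochberg over all tested genes, called under 0.05; confidence intervals are 95%). Alternatives used limma 3.58.1 and DESeq2 1.42.0. Overlapping genes were found from the table's coordinates. Replicates differed more than counting allows (chi-square over its degrees of freedom 23.1 to 27.8), so none is a copy. In simulated counts of 18022 genes, 50 genes were changed at each fold. The share called was 2% for 1.25-fold changes, 40% where the change was 1.5-fold, 60% where it was 2-fold and 92% where it was 4-fold. Of the calls 8.49% were false. The changed genes were drawn from all tested genes at any level, and were far fewer than the 2853 genes called in the data. These shares are therefore not the sensitivity for the transporter genes.

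Per-library values are printed for called genes and for others with a mean of at least 5 FPKM in a group, and from each further list up to 2 called genes per direction with the largest change. MYC, ATF4 and EIF4E were named in any case. RRAGA, NFE2L2, MTOR, RPTOR and CTNS were named after their values were seen. The members and lists were chosen with earlier results of these data known. Exact permutation tests used scipy 1.17.1, and figures matplotlib 3.10.9.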

Additional observations from a re-analysis of the deposited data

How the results depend on the processing

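Alternatives were DESeq2's median-ratio size factors, its Wald test, no filter on low counts, limma on log2(FPKM + 1) or log2(FPKM + 0.1), a robust estimate of the spread, a stricter threshold, a replicate block and each library left out. With 1 library left out, 9 to 11 transporter genes were called lower, 2 to 3 higher, their median log2 fold change was -0.22 to -0.16 and that of EIF4E -1.35 to -1.17. The median was -0.13 with limma on log2(FPKM + 1), which understates changes of low genes. Over all genes 2853 were called, 1818 without the filter, 1300 at an adjusted p under 0.01 and 1598 (without si-NC+M5 replicate 2) to 2283 with a library left out. SLC36A4, not called in any setting, was at -0.15 without si-NC+M5 replicate 2 and changed sign, to 0.060, without si-NC+M5 replicate 3. Of the sensing genes 1 to 4 were called lower, and of the other carriers 0 to 2 higher and 1 to 2 lower. Over all tested genes, same-numbered replicates deviated together only weakly (correlations 0.0298 to 0.0439), but each knockdown sample correlated best with its own number. The labels do not say whether the numbers pair the samples, and these values do not settle it. With the replicate block, 11 transporter genes were called lower, SLC1A4 added, and 3 higher, of 3414 calls, against 2853 without it. Counts near 0 limit SLC43A1, SLC7A7, SLC6A17 and the untested genes.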
